A study of Mus musculus with 2 samples.

Results

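The crystallins described here are 10 genes of the 32285 counted: Cryaa, Cryab, Cryba1, Cryba2, Cryba4, Crybb1, Crybb2, Crybb3, Crygs and Crym. They were chosen by their symbols alone, and no measured value entered the choice. Retinas of male C57BL/6J mice aged 7 months were dissociated and profiled by droplet single-cell RNA-seq at the 3′ end of transcripts, with 1 library from WT mice and 1 from ND6 mice. ND6 mice carry, in every tissue and without remaining normal copies, a missense mutation linked to Leber's hereditary optic neuropathy in the gene for ND6, a subunit of respiratory complex I encoded by mtDNA. The line was made with embryonic stem cells and is passed on by mutant mothers mated with WT males, whereas WT mice came from brother-sister mating. How many mice went into a library is not given in the sources used here, and with 1 library per group the spread between mice is not known.

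Crystallins are the main soluble proteins of the lens. The alpha crystallins Cryaa and Cryab are small heat shock proteins, chaperones that hold unfolding proteins in solution, and Cryab is also made in glia, muscle and other tissues. The beta crystallins (Cryba1, Cryba2, Cryba4, Crybb1, Crybb2, Crybb3) and the gamma-type crystallin Crygs are structural proteins of the lens fibre. Crym, despite its name, is not related to them in sequence. It binds thyroid hormone in the cytosol. Because the lens lies next to the retina in dissection, crystallin RNA in a retinal library can come from retinal cells or be carried over from lens, and each level below is set beside the RNA found outside cells.

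The libraries held 77958836 (WT) and 80358255 (ND6) unique molecular identifiers (UMIs), each of which counts 1 captured transcript. A barcode counted as a cell when it had more than 400 UMIs from more than 200 genes and no more than 20% of its UMIs came from mtDNA-encoded genes. There were 12529 cells in WT and 18395 in ND6, with medians of 1878 and 1416 UMIs. More than 400 UMIs were found in 27231 barcodes of WT and 22490 of ND6, and 23176 and 22256 of these had more than 200 genes. The mtDNA limit then removed 10647 barcodes in WT and 3861 in ND6. Both limits took more barcodes from WT, so the libraries do not enter the comparison on equal terms. Cells were clustered without the crystallins and the mtDNA-encoded genes, and the clusters were named from markers. They gave rod-like (10146 WT and 13851 ND6 cells), cone-like (619 and 1128), bipolar-like (233 and 638), amacrine-like (17 and 160), Müller-like (36 and 94), retinal pigment epithelium-like (RPE-like, 319 and 956), macrophage- or microglia-like (263 and 146) and red blood cell (75 and 23) classes. All 10 Müller markers, 7 of 8 RPE markers and all 9 macrophage or microglia markers were raised at least 2-fold in the class of that name. No rod marker was raised 2-fold in rod-like cells, which are most of the cells and were named in a second step. Markers of another type were raised beside those of the name in several clusters, and both RPE-like clusters raised 7 RPE, 3 lens and 4 pericyte markers. Müller markers were raised in them too, 4 in the cluster led by Serpine3 and 6 in the cluster led by Cox8b. The single Müller-like cluster raised 3 astrocyte and 3 bipolar markers beside its 10 Müller markers. In 2 clusters no type met the naming rule, and they stay unnamed, 1 led by Nefl (759 and 1260 cells) and 1 led by Nhlh2 (62 and 139 cells). Free RNA means barcodes of 10 to 100 UMIs, too few to be a cell, of which there were 7324 in WT (226145 UMIs) and 8621 in ND6 (389287 UMIs). Levels are in CPM, the UMIs of a gene per 1000000 UMIs of a group of barcodes. Brackets hold exact 95% intervals, which cover counting error only.

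Cryab and Crym gave nearly all crystallin UMIs. In the cells, Cryab was counted 2802 times in WT and 2814 times in ND6, and Crym 696 and 808 times. Crybb1 followed with 131 and 81 UMIs, Cryba4 with 44 and 19, and Crybb3 with 11 and 26. These 5 genes reached 20 UMIs over the cells of both libraries. The other 5 did not. Cryba1 had 4 and 10 UMIs, Crybb2 7 and 1, Cryaa 3 and 0, Cryba2 2 and 0, and Crygs 0 and 0. Both libraries showed the same 2 leading genes, and the sparse members were at or close to 0 in both.

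**Figure D1:**
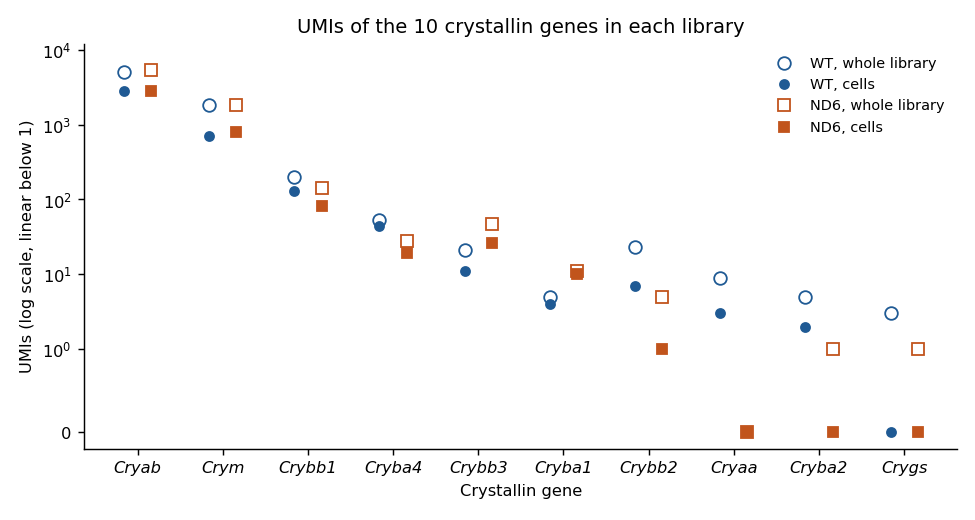
UMIs of the 10 crystallin genes (vertical axis, log scale, linear below 1) in the WT (circles) and ND6 (squares) libraries, over the whole library (open symbols) and in cells (filled symbols). Cryab stands highest with 2802 and 2814 UMIs in cells, and Crygs has no UMI in the cells of either library.

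Most crystallin UMIs were of Cryab. Lens is known for Cryaa and for beta and gamma crystallins as well. Of the UMIs of the 9 members other than Crym, Cryab held 93.3% (92.3 to 94.1) in WT cells and 95.4% (94.5 to 96.1) in ND6 cells. Crybb1 held 4.36% and 2.74%. In free RNA the share of Cryab was 93.1% of 29 UMIs in WT and 93.0% of 43 UMIs in ND6. No UMI of Cryaa, Cryba1, Cryba2, Cryba4, Crybb2 or Crygs was found in the free RNA of either library. With so few UMIs, a count of 0 allows a gene a share of up to 11.9% in WT and 8.22% in ND6. The lens gamma crystallins Crygb, Crygc, Crygd, Cryge and Crygf were at 0 UMIs in all cells of both libraries, and Cryga had 2 UMIs in WT cells and 5 in ND6 cells. No cell had more than 1% of its UMIs from the 9 members, the highest being 0.837% in WT and 0.966% in ND6. Of 13 lens genes, 5 were at 0 in the cells of both libraries, and the whole list summed to 1.94 CPM in WT and 1.62 CPM in ND6. Mip, the water channel of lens fibres, had 1 UMI in each library. Lim2, a membrane protein of lens fibres, had 35 and 27 UMIs, of which 34 and 24 lay in RPE-like cells (19.0 and 14.0 CPM). Bfsp2, a filament protein of lens fibres, had 15 and 22 UMIs, of which 12 and 9 lay in RPE-like cells. Hsf4, a transcription factor of lens, had 42 and 44 UMIs, of which 12 and 8 lay in RPE-like cells. In ND6 its highest level was in amacrine-like cells, at 13.8 CPM. Grifin, also on the list, had 9 and 6 UMIs and stood at 0.558 and 0.582 CPM in RPE-like cells. The part of lens RNA in the crystallin levels, that of Cryab in RPE-like cells among them, was not tested.

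With barcodes above the mtDNA limit left out, Cryab was highest in RPE-like cells and next highest in Müller-like cells, in both libraries. The gene lies on chromosome 9 (chr9:50751325-50756636, plus strand, GRCm38) and codes for the chaperone alpha-B crystallin. In RPE-like cells it reached 878 CPM (836 to 923) in WT and 615 CPM (578 to 653) in ND6. In Müller-like cells it reached 260 CPM (225 to 300) in WT and 236 CPM (189 to 292) in ND6. The free RNA of the same libraries held 119 CPM (78.7 to 174, 27 UMIs) in WT and 103 CPM (73.4 to 140, 40 UMIs) in ND6, so both classes stood above it. A gene is called here where 2 levels differ at least 2-fold with an interval that leaves out equality. Against free RNA, Cryab was called higher in RPE-like cells of both libraries, 7.36-fold in WT (log2 2.88, 2.33 to 3.49) and 5.98-fold in ND6 (log2 2.58, 2.13 to 3.07). Of all genes tested in RPE-like cells, 11.3% in WT and 8.94% in ND6 were called higher than free RNA.

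In Müller-like cells the excess of Cryab over free RNA was smaller, 2.18-fold in WT (log2 1.12, 0.54 to 1.76) and 2.30-fold in ND6 (log2 1.20, 0.64 to 1.78), and it was called in both. There, 19.9% of genes in WT and 11.2% in ND6 were called higher. The 194 Cryab UMIs of WT came from 36 Müller-like cells, and 51 of them lay in 1 cell. The counting interval does not cover such unevenness, and the ratio without that cell was not tested. With cells weighing equally the log2 ratios were 2.06 in WT and 0.96 in ND6. The Müller-like call rested on the clustering, since at a Leiden resolution of 2 the log2 ratios were 0.24 and 0.60 and at 0.5 they were 0.66 and 0.76, none of them called. Against barcodes of over 100 and up to 200 UMIs in place of free RNA, it was 0.93 in WT, not called, and 1.07 in ND6, called. Every other class lay at or below free RNA in WT. Rod-like cells held 16.4 CPM in WT and 15.6 CPM in ND6, cone-like cells 12.2 and 12.6 CPM, and macrophage- or microglia-like cells 22.0 and 24.5 CPM. Since free RNA is also captured with cells, levels at or below it are not read as expression, and the share of free RNA in each cell was not tested. Bipolar-like cells (33.4 and 61.0 CPM), amacrine-like cells (49.5 and 73.0 CPM) and the cluster led by Nhlh2 (16.2 and 75.8 CPM) had lower values than free RNA too.

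By level alone, the first 3 places in the order of Cryab were the same in both libraries: RPE-like, Müller-like, then the unnamed cluster led by Nefl with 81.0 CPM in WT and 119 CPM in ND6. The intervals of these 3 did not overlap within a library. In WT, though, the interval of amacrine-like cells (22.6 to 93.9, 9 UMIs) took in that of the Nefl-led cluster (70.8 to 92.2), so the order of these groups is not resolved there. Amacrine-like and bipolar-like cells of WT had overlapping intervals too, and their order is not resolved either. The level of the Nefl-led cluster did not differ by call from free RNA (log2 −0.56 in WT and 0.22 in ND6), where 4.08% and 2.31% of genes were called higher. In that cluster 8 Müller markers and 5 retinal ganglion cell markers were raised together, so a value for ganglion cells alone cannot be given. The Nhlh2-led cluster raised all 9 ganglion cell markers, beside 7 amacrine, 5 Müller and 4 horizontal cell markers. Amacrine-like cells raised 8 ganglion cell markers, beside 7 amacrine, 6 Müller and 4 horizontal cell markers.

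**Figure D2:**
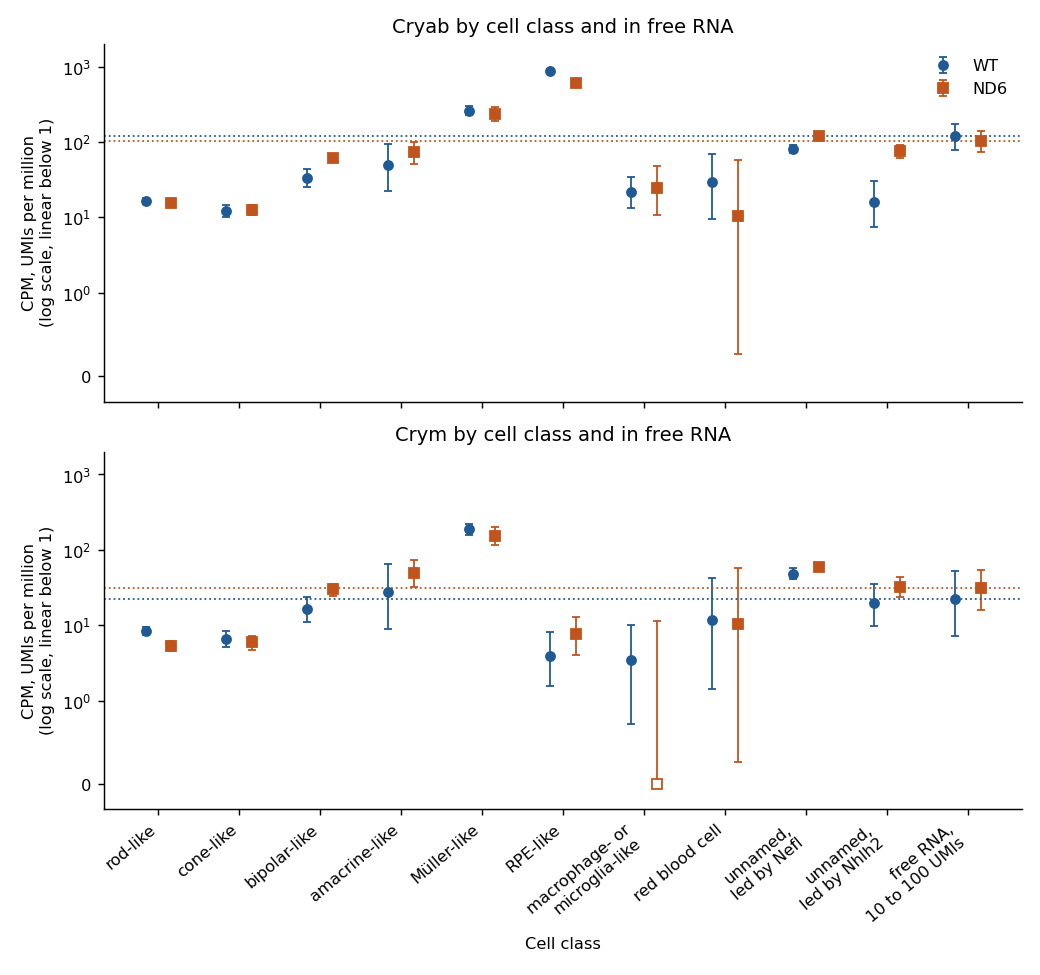
Cryab (upper panel) and Crym (lower panel) in CPM (vertical axis, log scale, linear below 1) in each cell class and in free RNA, for WT (circles) and ND6 (squares). Bars are exact 95% counting intervals, dotted lines are the free RNA levels and an open symbol stands for 0 UMIs. Cryab exceeds free RNA in RPE-like and Müller-like cells, at 878 and 260 CPM in WT, and Crym in Müller-like cells at 188 CPM.

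Cryab UMIs lay in a minority of the cells. Cryab was found in 1074 WT cells (8.57%) and 1798 ND6 cells (9.77%), and the 1% of cells with the most Cryab UMIs held 56.5% of them in WT and 31.1% in ND6. RPE-like cells, 2.55% of WT cells and 5.20% of ND6 cells, held 56.2% and 37.5% of the UMIs. The highest count in 1 cell was 51 in WT, in a Müller-like cell, and 27 in ND6, in an RPE-like cell. With each cell thinned to 400 UMIs, 25.1% of RPE-like cells in WT and 25.7% in ND6 had a Cryab UMI, against 0.917% and 0.931% of rod-like cells. The unthinned shares were 62.7% and 50.6% in RPE-like cells (medians of 2643 and 1120 UMIs) and 5.13% and 3.70% in rod-like cells (medians of 1733.5 and 1330 UMIs). The thinned shares of RPE-like cells in WT and ND6 thus lay within each other's intervals, from 20.4% to 30.2% and from 23.0% to 28.6%.

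The RPE-like class was made of 2 clusters that the libraries filled unequally. The cluster led by Serpine3 held 222 WT and 952 ND6 cells, and the cluster led by Cox8b held 97 WT and 4 ND6 cells. Cryab stood at 403 CPM (WT) and 602 CPM (ND6) in the Serpine3-led cluster. In the Cox8b-led cluster it stood at 1325 CPM in WT (1224 UMIs) and 1288 CPM in ND6 (41 UMIs). Within WT, Cryab was 3.29-fold higher in the Cox8b-led than in the Serpine3-led cluster (log2 1.72, 1.54 to 1.89), a comparison in which 13.4% of genes were called higher. The Cox8b-led cells were also deeper, with a median of 8180 UMIs against 1740.5 in WT, and the part of depth in this difference was not tested.

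The 3 genes whose levels over the 15 points (named classes by library) were most like those of Cryab were Rlbp1 (Pearson r = 0.983), Nt5dc2 (0.981) and Gsta4 (0.978), among 11877 genes on the log2(CPM + 1) scale. Rlbp1 codes for a retinaldehyde-binding protein of RPE and Müller glia. It was a Müller marker in the naming of clusters, and points of 1 library share its depth. For Crybb1 the nearest genes were Slco2b1 (0.983), Laptm5 (0.979) and the microglial receptor gene Cx3cr1 (0.977). Cx3cr1 was a macrophage or microglia marker in the naming of clusters. For Crym they were Dach1 (0.909), Shisa9 (0.893) and Slc7a2 (0.889).

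Crym, with the same barcodes left out, was highest in Müller-like cells and low in RPE-like cells. The gene lies on chromosome 7 (chr7:120186380-120202111, minus strand, GRCm38). In Müller-like cells Crym reached 188 CPM (158 to 222) in WT and 153 CPM (115 to 199) in ND6. RPE-like cells held 3.91 and 7.57 CPM, and free RNA 22.1 CPM (5 UMIs) in WT and 30.8 CPM (12 UMIs) in ND6. Müller-like cells exceeded free RNA 8.49-fold in WT (log2 3.09, 1.83 to 4.73) and 4.96-fold in ND6 (log2 2.31, 1.39 to 3.35), both called. This excess was also called at Leiden resolutions of 0.5 and 2. Against all other cells the Müller-like level was 18.2-fold higher in WT and 12.7-fold higher in ND6, where 14.4% and 14.3% of genes were called higher.

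After Müller-like cells, the Nefl-led cluster had the highest Crym level, 48.4 CPM in WT and 60.1 CPM in ND6, which was not called against free RNA (log2 1.13 and 0.96). Its intervals (40.7 to 57.3 and 53.2 to 67.6) overlapped those of amacrine-like cells (8.92 to 64.1 and 31.9 to 72.8), so their order is not resolved. Amacrine-like cells (27.5 and 49.3 CPM), the Nhlh2-led cluster (19.7 and 32.6 CPM) and bipolar-like cells (16.4 and 29.8 CPM) lay near free RNA. Rod-like cells, with 8.33 and 5.32 CPM, and cone-like cells, with 6.65 and 5.91 CPM, lay below it. Rod-like cells held 42.1% of the Crym UMIs in WT and 22.9% in ND6, and were 81.0% and 75.3% of the cells. With cells thinned to 400 UMIs, 11.1% (3.11 to 26.1) of Müller-like cells in WT and 6.38% (2.38 to 13.4) in ND6 had a Crym UMI, against 0.483% and 0.383% of rod-like cells. Without thinning, the Müller-like shares were 86.1% and 22.3%. The Müller-like cells of WT had a median of 10130 UMIs and those of ND6 1662, so the unthinned shares are not comparable.

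Crybb1 and Cryba4, a pair of neighbouring beta crystallin genes, were highest in macrophage- or microglia-like cells in both libraries. They lie head to head on chromosome 5, Cryba4 on the minus strand (chr5:112246493-112252518) and Crybb1 on the plus strand (chr5:112255815-112269585), with starts 3297 bases apart in GRCm38. Crybb1 stood at 133 CPM (110 to 160, 115 UMIs) in this class in WT and 166 CPM (124 to 216, 54 UMIs) in ND6. Rod-like cells had 0.171 and 0.230 CPM, and free RNA 8.84 CPM (2 UMIs) and 2.57 CPM (1 UMI). Cryba4 stood at 49.7 CPM (36.0 to 67.0, 43 UMIs) in WT and 39.9 CPM (21.2 to 68.2, 13 UMIs) in ND6, with 0 UMIs in the free RNA of both libraries. The class held 87.8% of the Crybb1 UMIs and 97.7% of the Cryba4 UMIs of WT cells, and 66.7% and 68.4% of those of ND6 cells.

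Both genes stood above free RNA. Crybb1 was called higher than free RNA in both libraries (log2 3.91, 2.02 to 6.97, in WT and 6.01, 3.47 to 11.3, in ND6). Cryba4 was at least 3.75-fold higher in WT, taking 3 UMIs as the limit that a count of 0 in free RNA allows, and its 13 UMIs in ND6 were too few for a call. With the counting error of its 43 UMIs the lower limit in WT was log2 1.55, and with free RNA taken as barcodes of 10 to 50 UMIs the bound fell to log2 0.78. In this class 16.1% of genes in WT and 11.6% in ND6 were called higher than free RNA. Against all other cells Crybb1 was 446-fold higher in WT and 384-fold higher in ND6, comparisons in which 12.3% and 9.49% of genes were called higher. With cells thinned to 400 UMIs, 7.22% (4.41 to 11.1) of these cells in WT and 8.90% (4.83 to 14.7) in ND6 had a Crybb1 UMI, and 0 of 10146 WT and 0 of 13851 ND6 rod-like cells did. Unthinned, the shares were 22.4% and 19.2% in the class (medians of 1671 and 1290.5 UMIs) and 0.059% and 0.058% in rod-like cells.

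Some cells of the class, and no others, held UMIs of both genes. Of the 263 WT cells of the class, 59 had a UMI of Crybb1, 36 of Cryba4 and 22 of both. Of the 146 ND6 cells, 28 had Crybb1, 11 had Cryba4 and 5 had both. Among all other cells, 15 in WT and 27 in ND6 had Crybb1, 1 and 6 had Cryba4, and no cell had both. The class was made of a cluster led by Ccl4, a chemokine gene, and a cluster led by Igkc, an antibody light chain gene. The Ccl4-led cluster held 48 WT and 26 ND6 cells and the Igkc-led cluster 215 and 120. Each raised all 9 macrophage or microglia markers, beside 3 Müller markers in the Ccl4-led and 4 endothelial markers in the Igkc-led cluster. Crybb1 stood at 194 and 244 CPM in the Ccl4-led cluster and at 83.6 and 113 CPM in the Igkc-led cluster, a called difference in both libraries (log2 1.22, 0.64 to 1.81, in WT and 1.11, 0.28 to 1.97, in ND6). In that comparison 24.2% of genes in WT and 21.9% in ND6 were called higher. The Ccl4-led cells had medians of 7766 and 4946 UMIs and the Igkc-led cells 1324 and 1010, and the part of depth was not tested. In cells with a UMI of the microglial genes P2ry12, Tmem119 or Cx3cr1 (108 in WT and 62 in ND6), Crybb1 stood at 161 and 238 CPM and Cryba4 at 58.8 and 51.7 CPM. In the remaining cells of the class (155 and 84), the levels were 70.5 and 60.3 CPM for Crybb1 and 29.7 and 22.6 CPM for Cryba4. The cells with such a UMI were deeper, with medians of 3496 and 2320 UMIs against 1315 and 1096, and the part of depth was not tested.

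**Figure D3:**
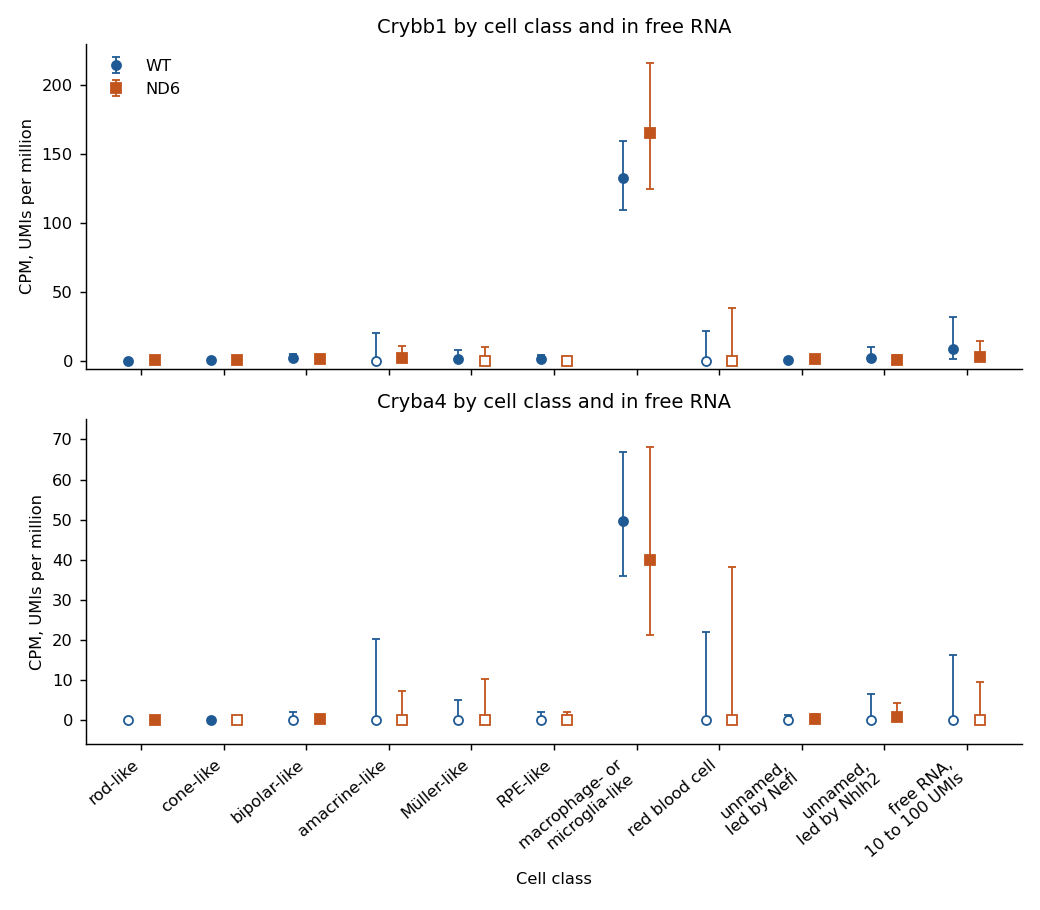
Crybb1 (upper panel) and Cryba4 (lower panel) in CPM (vertical axis, linear) in each cell class and in free RNA, for WT (circles) and ND6 (squares). Bars are exact 95% counting intervals and open symbols stand for 0 UMIs. The macrophage- or microglia-like class stands highest in both libraries, at 133 and 166 CPM for Crybb1 and at 49.7 and 39.9 CPM for Cryba4.

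The stretches before the starts of these genes are shown because both genes had their highest level in the same class. Each is the 250 bases before the start in RefSeq (GRCm38.p6), read 5′ to 3′ on the strand of the gene, with matches to TGCTGAC or TATAAA on either strand in capitals. TGCTGAC is part of the sequence bound by the factor Maf, and TATAAA is the TATA box. Both were chosen after the levels had been seen.
Crybb1, chr5:112255570-112255819, plus strand: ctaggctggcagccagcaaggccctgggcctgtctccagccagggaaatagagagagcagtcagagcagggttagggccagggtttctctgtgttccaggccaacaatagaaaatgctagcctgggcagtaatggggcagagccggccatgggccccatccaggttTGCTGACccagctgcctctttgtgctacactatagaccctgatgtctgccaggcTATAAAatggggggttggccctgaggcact
Cryba4, chr5:112252519-112252768, minus strand: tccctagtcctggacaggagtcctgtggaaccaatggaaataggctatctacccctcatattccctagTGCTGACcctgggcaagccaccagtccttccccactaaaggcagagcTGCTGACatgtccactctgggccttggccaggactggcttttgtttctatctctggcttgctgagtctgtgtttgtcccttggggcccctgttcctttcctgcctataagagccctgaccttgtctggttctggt
The Crybb1 stretch held 1 match to TGCTGAC and 1 to TATAAA, and the Cryba4 stretch held 2 to TGCTGAC and none to TATAAA. The matches did not overlap. TGCTGAC occurred in 3.81% and TATAAA in 12.4% of the 250-base stretches of 32851 promoters. GAGGAAGT, a sequence bound by the myeloid factor PU.1, occurred in 2.44% and in neither of these stretches. Of the 8 members with a stretch in the table, 4 held TGCTGAC, namely Crybb1, Cryba4, Cryba1 and Cryaa. A match is a description of the letters and was not tested as a site. The gene for Maf had its highest level in macrophage- or microglia-like cells, with 166 CPM in WT and 187 CPM in ND6.

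Of the sparse members, Crybb3 and Cryba1 had more UMIs in ND6 cells and Crybb2, Cryaa and Cryba2 more in WT cells, all in small numbers. The 26 Crybb3 UMIs of ND6 lay in rod-like cells (8), the Nefl-led cluster (7), the Nhlh2-led cluster (7) and elsewhere. Crybb3 reached 5.30 CPM (2.13 to 10.9) in the Nhlh2-led cluster of ND6, beside 5.14 CPM (2 UMIs) in free RNA. Bipolar-like cells held 6 of the 10 Cryba1 UMIs of ND6 and none of the 4 of WT, of which 3 lay in rod-like cells. Of the 7 Crybb2 UMIs of WT cells, 5 lay in rod-like cells and 2 in the Nhlh2-led cluster. The 3 Cryaa UMIs of WT lay in 2 rod-like cells and 1 cone-like cell, and the 2 Cryba2 UMIs in 1 rod-like cell. Crygs had 3 UMIs in the whole WT library and 1 in the ND6 library, all outside the cells. Crybb2, with a log2 ratio of ND6 to WT of −3.01 (−8.51 to −0.05, 1 against 7 UMIs), was called only when the limit of 20 UMIs was dropped, and no difference between classes is read for these members at this depth.

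The levels of Cryab and Crym also varied with the depth of the barcode. In barcodes of over 100 and up to 400 UMIs, below the limit for a cell, Cryab stood at 133 CPM in WT and 123 CPM in ND6 and Crym at 67.0 and 44.7 CPM. In cells of up to 1000 UMIs, Cryab stood at 95.8 and 128 CPM, in cells of over 1000 and up to 4000 UMIs at 41.5 and 62.1 CPM, and in cells of over 4000 UMIs at 54.1 and 30.5 CPM. Crym stood at 44.4 and 19.9 CPM in the cells of up to 1000 UMIs, at 14.5 and 13.9 CPM in the middle band and at 11.1 and 11.8 CPM in those of over 4000. The barcodes of over 100 and up to 400 UMIs exceeded the cells by call for Cryab and Crym in WT, where 3.87% of genes were called higher, and for Cryab, Crybb1, Crybb3 and Crym in ND6, where 16.4% were.

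The barcodes above the mtDNA limit, which were left out of the cells, had high levels of Cryab and Crym in ND6. Cryab stood at 77.9 CPM there in WT and at 217.7 CPM in ND6, and Crym at 44.9 and 110.4 CPM. The ratio of ND6 to WT was called for both, with log2 1.48 (1.36 to 1.61) for Cryab and 1.30 (1.12 to 1.47) for Crym, while 24.5% of genes were called and the median over all genes was 0.35. With these barcodes kept and the cells clustered again, 1 cluster led by Nefl met the naming rule for ganglion cells. It held 1643 WT and 1999 ND6 cells, and all 9 ganglion cell markers and all 10 Müller markers were raised in it. In it Cryab stood at 250 CPM (227 to 274) in WT and 324 CPM (304 to 344) in ND6, and Crym at 167 CPM (149 to 187) and 171 CPM (156 to 186). The Müller-like cells of this clustering held Cryab at 263 CPM in WT and 250 CPM (199 to 310) in ND6 and Crym at 189 and 160 CPM (119 to 209 in ND6). In ND6 the Nefl-led cluster thus came before Müller-like cells in the order of both genes, with overlapping intervals. In that cluster both genes were called higher than free RNA in both libraries, 2.09-fold and 3.15-fold for Cryab and 7.57-fold and 5.54-fold for Crym, where 4.75% and 3.62% of genes were called higher. The ratio of ND6 to WT within this cluster was not called, with log2 0.37 for Cryab and 0.03 for Crym beside a median of 0.45 over all genes.

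**Figure D4:**
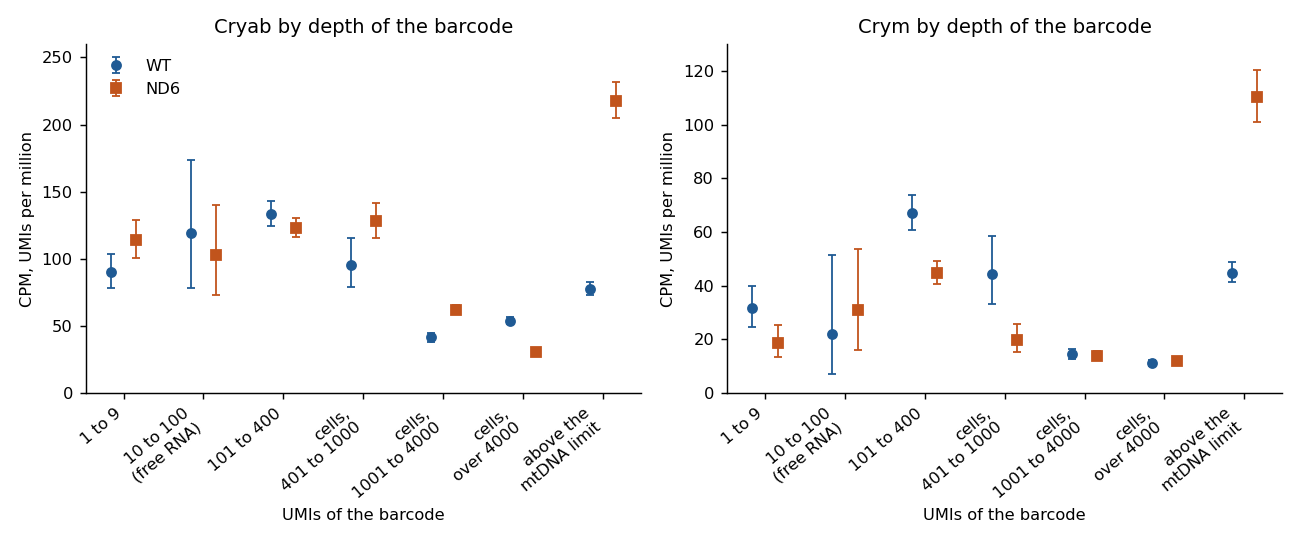
Cryab (left) and Crym (right) in CPM (vertical axis, linear) by the number of UMIs of the barcode, with barcodes above the mtDNA limit at the right, for WT (circles) and ND6 (squares). Bars are exact 95% counting intervals. Barcodes of ND6 above the mtDNA limit stand highest, at 217.7 CPM for Cryab and 110.4 CPM for Crym.

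Between ND6 and WT, 1 of the 5 crystallins with enough UMIs was called over all cells, Cryba4, which was lower in ND6. Its log2 ratio was −1.42 (−2.28 to −0.61, 19 against 44 UMIs). Of all genes tested 10.9% were called and 2.62% were called lower, and the median log2 ratio was 0.07. Crybb1 had a log2 ratio of −0.90 (−1.32 to −0.49) without reaching 2-fold. Macrophage- or microglia-like cells were 2.10% of the cells in WT and 0.794% in ND6. Within that class neither gene was called, with log2 0.32 (−0.18 to 0.80) for Crybb1 and −0.32 (−1.34 to 0.60) for Cryba4, and 7.6% of genes were. Cryab had a log2 ratio of −0.20 (−0.28 to −0.13) over all cells. Its direction was not fixed, since it was 0.51 when each cell weighed equally, 0.01 without the mtDNA limit and −0.86 with cells called on ranked barcodes. Crym had a log2 ratio of 0.01 (−0.14 to 0.16), and −0.28 with cells weighing equally. Crybb3 had 1.03 (−0.03 to 2.20), which became −0.26 with cells weighing equally but was called at 1.18 without the mtDNA limit and at 1.75 with cells called on ranked barcodes. The latter also gave a called −1.19 for Crybb1. The shares of all genes called under these alternative settings are not given here.

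No crystallin was called between ND6 and WT in any named class with at least 20 cells in each library. In RPE-like cells the log2 ratio of Cryab was −0.52 (−0.63 to −0.40), and in the Serpine3-led cluster alone it was 0.58 (0.40 to 0.76), so the sign turned on the 97 deep WT cells of the Cox8b-led cluster. With cells weighing equally, the ratio in the whole RPE-like class was −0.08. Of all genes, 4.47% were called in the class and 9.83% in the Serpine3-led cluster. In Müller-like cells the ratio was −0.14 (−0.52 to 0.24) for Cryab and −0.30 (−0.77 to 0.16) for Crym, with 7.78% of genes called, and with cells weighing equally −1.31 and −1.46. In bipolar-like cells both were higher in ND6 without reaching 2-fold, at 0.87 (0.45 to 1.31) for Cryab and 0.86 (0.26 to 1.51) for Crym, at levels not above free RNA, where 5.26% of genes were called. In rod-like cells Crym stood at −0.65 (−0.92 to −0.38) and Cryab at −0.08 (−0.25 to 0.09), both at levels below free RNA, where 10.5% of genes were called. In cone-like cells the ratios were 0.05 for Cryab and −0.17 for Crym, with 4.64% called.

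In the unnamed cluster led by Nhlh2, Cryab was called 4.69-fold higher in ND6 (log2 2.23, 1.25 to 3.40, 100 against 9 UMIs), where 7.85% of genes were called. Both of its levels were lower than the free RNA of their library, and the part of free RNA in the difference was not tested. In the Nefl-led cluster Cryab (0.56) and Crym (0.31) were not called, with 8.78% called. In free RNA the log2 ratio of Cryab was −0.22 (−0.96 to 0.54), with 11.9% called.

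**Figure D5:**
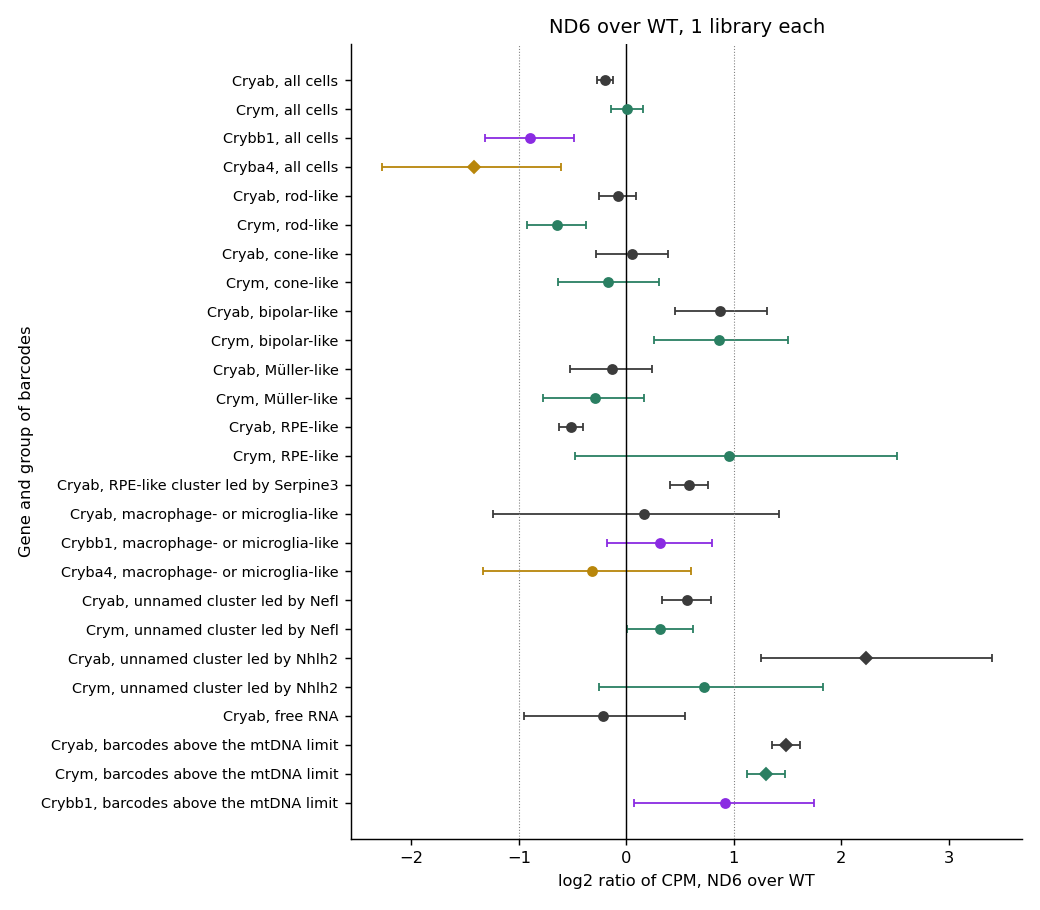
log2 ratio of CPM in ND6 over WT (horizontal axis) for Cryab, Crym, Crybb1 and Cryba4 in each group of barcodes in which the gene reached 20 UMIs. Bars are exact 95% counting intervals, diamonds are called differences, circles are not, and dotted lines mark 2-fold. The called values are Cryba4 over all cells at −1.42, Cryab in the Nhlh2-led cluster at 2.23, and Cryab and Crym above the mtDNA limit at 1.48 and 1.30.

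The genes around the crystallins were read from lists. Of 13 further crystallin and crystallin-like genes, 5 had enough UMIs over all cells and 1 was called between ND6 and WT, with a median log2 ratio of 0.26. Over all genes 10.9% were called and the median was 0.07, against which each list is set. That was Crygn, a gamma-type crystallin, lower in ND6 (log2 −1.53, 22 against 55 UMIs). Crygn lay in RPE-like cells, at 29.0 CPM in WT and 11.6 CPM in ND6, with 52 and 20 of its UMIs. Of 8 small heat shock genes, 5 had enough UMIs and 1 was called, Hspb8, lower in ND6 (log2 −1.55), and the median was −0.61. Hspb2, which overlaps the start of Cryab by 1030 bases on the other strand, had 36 UMIs in WT and 22 in ND6, and without strand its reads and those of Cryab cannot be told apart there. Of 9 transcription factor genes known to act on crystallin genes, 7 had enough UMIs and 1 was called, Six3, higher in ND6 (log2 1.12), and the median was 0.33. Of 9 thyroid hormone genes listed beside Crym, 8 had enough UMIs, none was called, and the median was 0.27. Among them Dio2, whose enzyme activates thyroid hormone, was like Crym highest in Müller-like cells, at 34.9 CPM in WT and 11.1 CPM in ND6. Of the 13 lens genes, 3 had enough UMIs, none was called, and the median was −0.14.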

How the data were processed

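The authors aligned and counted the reads with Cell Ranger 3.0.2 on the mm10 build, and the deposited values are raw UMI counts per gene and barcode for every barcode of both libraries. The annotation release and whether counting used strand are not given in the sources used here. Barcodes were filtered with the limits stated in the study's methods. No doublet caller was run, so doublets remain. The libraries shared 59 cell barcodes. Cells of both libraries were clustered together in scanpy 1.11.5 with leidenalg 0.10.2 (3000 variable genes, 30 principal components, 20 neighbours, resolution 1) after 52 genes had been left out, among them the crystallins and the mtDNA-encoded genes. A cluster of at least 20 cells was named when at least 3 markers of 1 type were raised 2-fold and that type had the most markers among its 10 leading genes. Rods, being most cells, were named in a second step against the other named classes, by a rule settled after the clusters had been seen. Counts were summed per class and library and ratios were given exact conditional 95% intervals (scipy 1.17.1), for genes with at least 20 UMIs over the groups compared. No test between WT and ND6 was possible with 1 library each, so no p-value is given. The interval code was tested on simulated data. Gene positions came from GENCODE on GRCm38, and sequences from RefSeq promoters, found for 8 of the 10 genes (not Cryab or Crym). The text names all members, 5 gene lists and the 3 genes most like each member with at least 200 UMIs. The members, lists and alternatives were chosen with earlier results of these data known.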

Additional observations from a re-analysis of the deposited data

Results flagged for a closer look

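Cryab stood at 217.7 CPM and Crym at 110.4 CPM in the 3861 ND6 barcodes above the mtDNA limit. These barcodes entered comparisons between cell classes only where the mtDNA limit was dropped. The values were above those of the 10647 WT barcodes left out for the same reason, 77.9 CPM for Cryab and 44.9 CPM for Crym.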

How the results depend on the processing

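No paired analysis was possible because each group had 1 library, and for the same reason no replicate could be left out. Of 189 alternative values for 39 results, 153 stayed within the limits set for the same outcome, 36 moved and none of the called values changed sign. Over all cells, 1 member was called between ND6 and WT, against 2 without the mtDNA limit, 3 with cells called on ranked barcodes (2137 WT and 3235 ND6 cells) and 2 without the filter on low counts, which adds genes. Within named classes none was called, against 3 without the mtDNA limit (Crybb1 in rod-like, Cryab and Crym in amacrine-like cells, all higher in ND6) and 1 at a Leiden resolution of 0.5 (Cryab in amacrine-like cells). The amacrine-like class held 28 WT and 40 ND6 cells without the mtDNA limit. The cause was not tested. Without thinning, the share of macrophage- or microglia-like cells with a Crybb1 UMI was 22.4% in WT and 19.2% in ND6, since deeper cells give more UMIs. The count of calls over free RNA, 9 of them, ranged from 7 to 10. The shares of all genes called under these alternative settings are not given here, so the changed counts are not read as traits of crystallins. Leaving out barcodes rich in crystallins changed nothing because none passed 1%. Leaving out the RPE-like cluster led by Cox8b was added after seeing the data. Free RNA had 226145 UMIs in WT and 389287 in ND6, which limits each ratio to it.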
